A study of Homo sapiens with 6 samples.

Results

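SVA retroposon loci were examined in polyadenylated RNA of SW480, a widely used cell line from a human colon adenocarcinoma. A locus was included when its RepeatMasker subfamily name started with SVA_ (SVA_A to SVA_F) and when it had a row in at least 1 of the 6 deposited repeat tables. This rule found 2375 SVA loci among 725684 loci of the LINE, SINE, LTR, DNA and SVA classes. Both groups of cells carried a stable lentiviral construct with a CMV promoter and had been selected with an antibiotic. The control cells expressed the fluorescent protein Clover (3 libraries), and the others expressed ZC3H18, a zinc-finger protein of nuclear RNA surveillance, in truncated form (Z18trunc, 3 libraries). No label says that the cells' own ZC3H18 was removed, so the truncated form, driven by the viral CMV promoter, was present together with it. The study's methods describe the lines as biological triplicates. Epithelial genes were present in every library, with KRT8 at 9394 to 10116 TPM, EPCAM at 289 to 375 TPM and VIL1 lower at 10.1 to 14.8 TPM. The leukocyte gene PTPRC and the melanocyte gene MLANA were listed at 0. Another melanocyte gene, PMEL, was at 1.42 to 3.60 TPM, and the collagen gene COL1A1 at 1.14 to 1.55 TPM.

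SVA elements are the youngest retrotransposon family of hominids. A full element starts with a CCCTCT hexamer repeat, continues with an Alu-like part and a variable number of GC-rich tandem repeats, and ends with a SINE-R part derived from an endogenous retrovirus of the HERV-K group and a poly(A) tail. SVA elements encode no protein and are mobilised in trans by the LINE-1 machinery. In human cells they are known as targets of the KRAB zinc-finger protein ZNF91, which recruits TRIM28 and the histone methyltransferase SETDB1, and of DNA methylation. The comparison asked whether SVA RNA, like other repeat RNA, differed between cells with truncated ZC3H18 and control cells.

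The ends of the element carry recognisable motifs, which were counted over all loci on hg38. They were the hexamer CCCTCT at the 5′ end and AATAAA, the canonical polyadenylation signal, at the 3′ end, with overlapping copies counted. Both motifs were searched on the strand of the locus only. CCCTCT was present within 150 bases on either side of the 5′ end in 79.0% of the 2375 SVA loci, compared with 7.65% of 723309 loci of the other classes and 7.89% of all loci. At least 3 copies were present in 56.0% of SVA loci and in 0.065% of the other loci. By subfamily, the share with CCCTCT ran from 43.4% of SVA_A to 87.5% of SVA_D loci. AATAAA lay within 250 bases before and 50 bases after the 3′ end of 69.1% of SVA loci, 31.9% of the other loci and 32.0% of all loci.

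The SVA loci had a median length of 1433 bp and reached 4260 bp. SVA_D was the largest subfamily with 1001 loci, followed by SVA_F with 482, SVA_B with 267, SVA_A with 228, SVA_C with 212 and SVA_E with 185. Median divergence from the subfamily consensus, given by RepeatMasker per mille, was lowest in SVA_C, at 43.0 in SVA_D and highest in SVA_A (93.5). Of all SVA loci, 444 lay in a deposited gene span on the same strand, 914 only in a gene on the other strand and 1017 outside gene spans. An exon of GENCODE 44 on the same strand overlapped 137 loci. RepeatMasker splits some insertions, and joining loci on the same strand within 500 bases left 2188 elements, of which 162 were made of several loci.

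RNA from the strand of the element itself, called the own strand here, was detected at 1760 loci. The other 615 loci had rows on the opposite strand only. Each library held own-strand rows for 650 to 727 loci, and 173 loci had one in all 6 libraries, while 786 had one in a single library. SVA loci took 0.0247% to 0.0288% of aligned fragments, which numbered 18226033 to 22463310 per library. Levels are given as CPM, the estimated count of a locus per 1000000 aligned fragments, in which multiply mapped fragments had been shared among loci by the authors' expectation-maximization step. Uniquely mapped fragments made up 58.9% to 62.5% of the SVA counts, compared with 70.6% to 73.9% for the other 4 classes. The floor for a locus at 0 was set at 3 counts, which equals 0.134 to 0.165 CPM depending on the library.

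The perturbed gene was checked first. ZC3H18 was at 58.4, 51.3 and 61.8 TPM in Clover and at 752, 739 and 798 TPM in Z18trunc libraries, a log2 change of 3.72 (SE 0.09, limma adjusted p = 3.2e-05). TPM of the gene does not separate the construct from the cells' own transcript. In bulk RNA, fewer cells with a transcript and less of it per cell cannot be told apart.

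Summed SVA RNA did not separate the groups. The own-strand sum was 269, 288 and 253 CPM in the Clover libraries and 247, 281 and 282 CPM in the Z18trunc libraries. The Z18trunc library numbered 1 was the lowest of all 6, and the Clover library numbered 2 was the highest. The means were 269.6 ± 17.6 CPM (SD, n = 3) for Clover and 270.0 ± 19.9 CPM (SD, n = 3) for Z18trunc, with a log2 difference of 0.0013 (exact two-sided permutation test, p = 1, where 3 against 3 libraries cannot go below 0.1).

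Over the same libraries, other repeat classes were higher in Z18trunc. LTR loci, the class that holds endogenous retroviruses, were higher by 0.21 on the log2 scale, LINE loci by 0.23 and DNA transposons by 0.21, each without overlap between groups (exact permutation p = 0.1, the smallest possible). SINE loci were higher by 0.11 with overlapping groups (exact permutation p = 0.2). LINE-1 loci named L1HS or L1PA, with every L1PA number included, were at 715, 718 and 666 CPM in Clover and at 764, 825 and 1073 CPM in Z18trunc. Their log2 difference was 0.33 (exact permutation p = 0.1). LINE-1 encodes the proteins that mobilise SVA, but which of these 23299 loci are intact was not examined. AluY, another family that depends on LINE-1 proteins, was higher by 0.12 (exact permutation p = 0.3) with overlapping groups, and ERVK, the family from which SINE-R derives, by 0.14 without overlap (exact permutation p = 0.1).

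**Figure D1:**
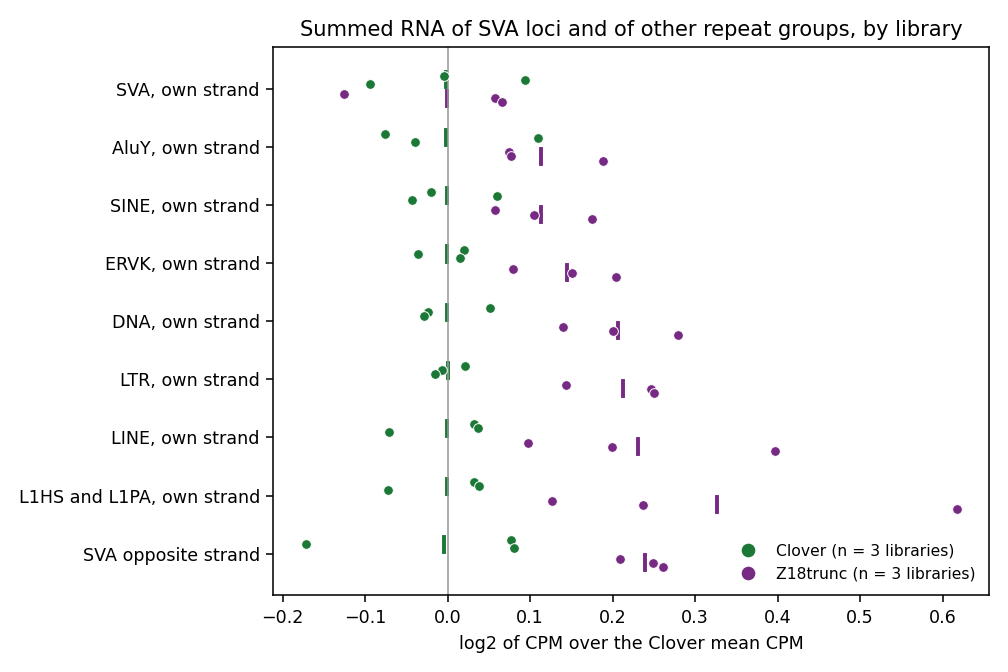
Summed own-strand RNA of SVA and of other repeat groups, and opposite-strand RNA of SVA, in each library. The x axis gives the log2 of CPM over the Clover mean, points are libraries (green Clover, purple Z18trunc, 3 each) and vertical marks are group means; SVA on its own strand is the row whose group means coincide, while L1HS and L1PA differ by 0.33.

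Within a library, SVA RNA was set against the other repeat RNA. The log2 ratio of SVA to the summed LINE, SINE, LTR and DNA counts was -6.48, -6.41 and -6.52 in Clover and -6.68, -6.57 and -6.66 in Z18trunc libraries. All 3 Z18trunc ratios lay below all 3 Clover ratios, with a difference of -0.17 (exact permutation p = 0.1, the smallest possible). This ratio does not depend on the scaling of libraries. At loci that overlap no exon on either strand the difference was -0.33, again without overlap (exact permutation p = 0.1). Restricting both sides to loci with at least 30 counts gave -0.12 with overlapping groups (exact permutation p = 0.2), and the same ratio of opposite-strand counts differed by 0.06 in the other direction (exact permutation p = 0.6). Against L1HS and L1PA the log2 ratio was lower by 0.33 without overlap (difference -0.33, exact permutation p = 0.1), and against AluY and ERVK the differences were -0.11 and -0.14 with overlapping groups (exact permutation p = 0.2 for each).

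Whether SVA RNA is called level or lower depends on what libraries are scaled to. Scaling to the opposite-strand counts of other repeats at loci without exons gave a log2 difference of -0.28 for the SVA sum, and scaling to the repeat counts of both strands gave -0.18, each without overlap between groups (exact permutation p = 0.1). Per aligned fragment, the median log2 change over all 12590 tested repeat loci was 0.17, and that over the SVA loci among them was 0.02. TMM scaling set these medians to -0.0005 and -0.16. The SVA median was thus below that of all tested loci under both scalings. TMM scaling shifts the changes of all loci by nearly the same amount, so the second comparison is not a separate result.

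Per aligned fragment, the place of a locus with respect to genes did not separate the groups either. SVA loci inside a gene on the same strand summed to 143 ± 9.91 CPM in Clover and 146 ± 10.7 CPM in Z18trunc (SD, n = 3 each, log2 difference 0.03, exact permutation p = 1). Loci with a gene on the opposite strand alone summed to 38.3 ± 2.12 and 34.6 ± 3.51 CPM (log2 difference -0.15, exact permutation p = 0.3). Loci outside the deposited gene spans summed to 88.0 ± 6.53 and 89.0 ± 7.21 CPM (log2 difference 0.02, exact permutation p = 0.9). Some of these loci overlap GENCODE exons on the same strand, among them abundant ones in ZNF584-DT, ZNRF2P1 and GTF3C2-AS2. Loci that overlap an exon on the same strand differed by 0.08 (exact permutation p = 0.5) and those that do not by -0.07 (exact permutation p = 0.6). Scaled to opposite-strand counts, all 5 of these sums were lower in Z18trunc without overlap, with log2 differences from -0.43 to -0.21 (exact permutation p = 0.1 for each). This scaling shifts the log2 difference of every sum by the same amount, and the 5 sums share loci, so they are not separate results. Opposite-strand RNA of the other classes was itself higher in Z18trunc, by 0.15 (SINE) to 0.25 (LTR) on the log2 scale.

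By length, loci of 1500 bp or more held 52.5% of own-strand SVA counts, and loci under 500 bp held 7.2%. Uniquely mapped fragments were 77.0% of the counts at loci under 500 bp, 56.3% at loci from 500 bp to under 1500 bp and 61.3% at longer ones. The longest class was at 139.6 ± 8.90 CPM in Clover and 144 ± 10.7 CPM in Z18trunc (SD, n = 3 each).

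No SVA subfamily passed the test on its own strand. edgeR's quasi-likelihood test with Benjamini-Hochberg adjustment called 0 of the 6 subfamilies at 0.05, and 0 of 6 had an unadjusted p under 0.05, while it called 1.88% of 904 repeat subfamilies and 24.4% had an unadjusted p under 0.05. DESeq2 called 0 of 6 as well, where it called 6 of all 904 subfamilies with its own size factors and 15 with aligned fragments. Sums over a subfamily grow with the number and length of its loci and are compared only between groups.

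SVA_C had the highest estimate. Its sum was 43.3, 48.2 and 40.5 CPM in Clover and 46.5, 47.7 and 53.0 CPM in Z18trunc, and edgeR estimated the change at 0.16 on the log2 scale (SE 0.10, adjusted p = 0.318). A single locus, in the gene TRIM56, made up 80.1% of the SVA_C counts. For SVA_D, the subfamily with most counts, the sum was 111, 122 and 112 CPM in Clover and 103, 119 and 117 CPM in Z18trunc (log2 change -0.03, SE 0.09, edgeR adjusted p = 0.857). The human-specific subfamilies gave similar estimates, with SVA_E at 13.6 ± 1.47 and 12.9 ± 0.931 CPM (log2 change -0.08) and SVA_F at 49.0 ± 5.62 and 47.9 ± 4.55 CPM (log2 change -0.03). SVA_A and SVA_B, the older ones, had log2 changes of -0.04 and -0.01. Groups overlapped in all 6 subfamilies. Under TMM scaling 5 of 6 had an unadjusted edgeR p under 0.05, and the lowest adjusted p was 0.138, for SVA_D. All 6 estimates were then below 0, from -0.28 for SVA_E to -0.04 for SVA_C, where the median over all 904 subfamilies was 0.0086. The share of all subfamilies with such a p under TMM scaling is not given, so the 5 cannot be set against it.

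**Figure D2:**
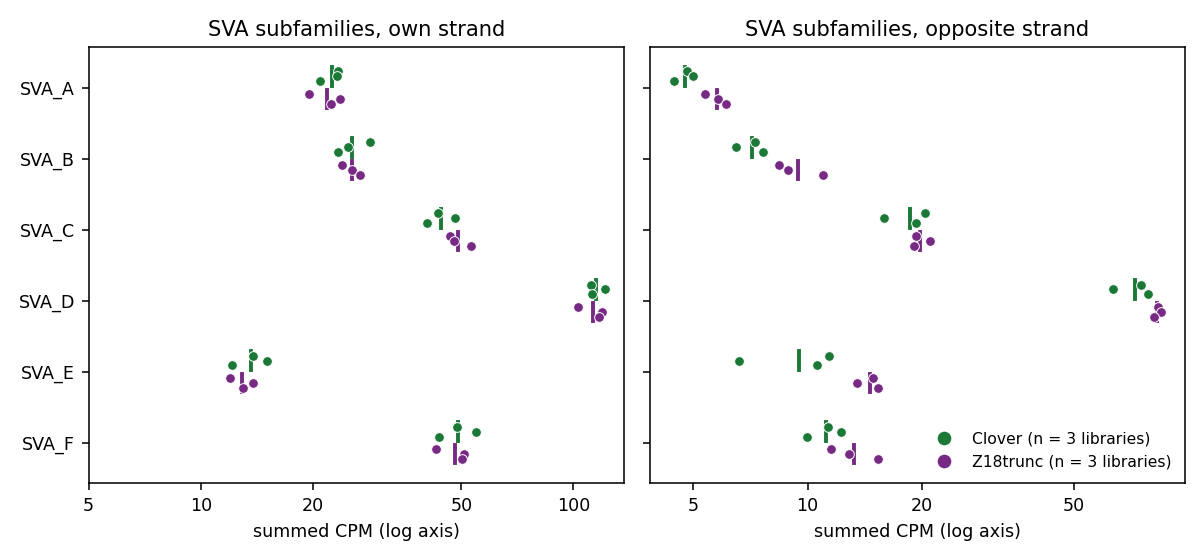
Summed CPM of the 6 SVA subfamilies on the own strand (left) and the opposite strand (right), both on a log axis. Points are libraries (green Clover, purple Z18trunc, 3 each) and vertical marks are group means; on the left the groups overlap in every subfamily, and on the right SVA_E goes from 9.52 to 14.5 CPM.

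RNA from the opposite strand of SVA loci was higher in Z18trunc. It summed to 130.2, 109.5 and 130.4 CPM in Clover and 143, 147 and 148 CPM in Z18trunc libraries. The Clover library numbered 2 was the lowest, and the other 2 Clover libraries also lay below all Z18trunc libraries. Without Clover library 2 the log2 difference was 0.16 (exact permutation p = 0.2, the smallest then possible). The log2 difference was 0.24 (exact permutation p = 0.1, the smallest possible), against 0.15 to 0.25 for the opposite strands of the 4 other classes. Scaling to opposite-strand counts gave -0.04 with overlapping groups (exact permutation p = 0.9).

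The log2 ratio of own-strand to opposite-strand SVA counts was 1.05, 1.39 and 0.95 in Clover and 0.79, 0.94 and 0.93 in Z18trunc libraries, a difference of -0.24 (exact permutation p = 0.1). Clover library 2 had the highest ratio, and without it the difference was -0.11 (exact permutation p = 0.2). With uniquely mapped counts the difference was -0.22 and without the 10 most abundant SVA loci it was -0.24, in both cases with overlapping groups (exact permutation p = 0.2 and p = 0.3).

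Opposite-strand fragments at SVA loci lay mostly inside genes. Between 87.6% and 88.9% of them lay in a deposited gene span on the strand of the fragment. The leading locus, an SVA_D on chr5:138810554-138811964 in CTNNA1, the gene of alpha-catenin, held 24.3% of the opposite-strand counts at 31.6, 26.8 and 36.0 CPM in Clover and 33.6, 36.2 and 31.9 CPM in Z18trunc. Other leading loci lay in MFN2 (mitofusin), HUWE1 (a ubiquitin ligase), CORO1C (an actin-binding coronin) and SEH1L (a nucleoporin).

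On the opposite strand 1 of 6 subfamilies, SVA_E, passed the test, while 12.7% of 909 subfamilies did so. SVA_E was at 11.4, 6.59 and 10.6 CPM in Clover and at 14.8, 13.5 and 15.3 CPM in Z18trunc, and edgeR estimated the change at 0.61 on the log2 scale (SE 0.13, adjusted p = 0.00162), where the median over all opposite-strand subfamilies was 0.25. The groups did not overlap. The call was lost without Clover library 2, the lowest (log2 change 0.41, edgeR adjusted p = 0.101), and kept without any other single library. It was also lost under TMM scaling (0.37, adjusted p = 0.176) and scaling to opposite-strand counts (0.33, adjusted p = 0.272). The largest part of these counts lay at 1 locus, chrX:53577490-53579966 in HUWE1, which was at 6.40, 2.67 and 6.67 CPM in Clover and at 9.35, 7.85 and 8.57 CPM in Z18trunc (log2 change 0.70, SE 0.20, edgeR adjusted p = 0.248). HUWE1 itself was at 99.6 ± 21.1 TPM in Clover and 138 ± 1.37 TPM in Z18trunc (log2 change 0.49, limma adjusted p = 0.108). Without that locus, opposite-strand SVA_E summed to 4.27 ± 0.590 and 5.96 ± 0.688 CPM, still without overlap (log2 difference 0.48, exact permutation p = 0.1). The HUWE1 locus was singled out after its values were seen, and the part of the host transcript in it was not tested. At the level of loci, edgeR called 0 of 46 opposite-strand SVA loci, against 0.0573% of 12216 loci, and 7 of the 46 had an unadjusted p under 0.05 and were higher in Z18trunc, compared with 7.68% of all.

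On the own strand, 137 SVA loci reached 30 counts over the 6 libraries and were tested. They held 80.7% of own-strand SVA counts, and 18 of them reached 30 counts in 1 of the groups only. The median log2 change of the 137 loci was 0.02, with quartiles of -0.27 and 0.34, compared with a median of 0.17 (quartiles -0.14 and 0.51) for the 12453 other tested loci. Estimates were above 0 at 51.1% of the SVA loci and at 64.5% of the others.

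**Figure D3:**
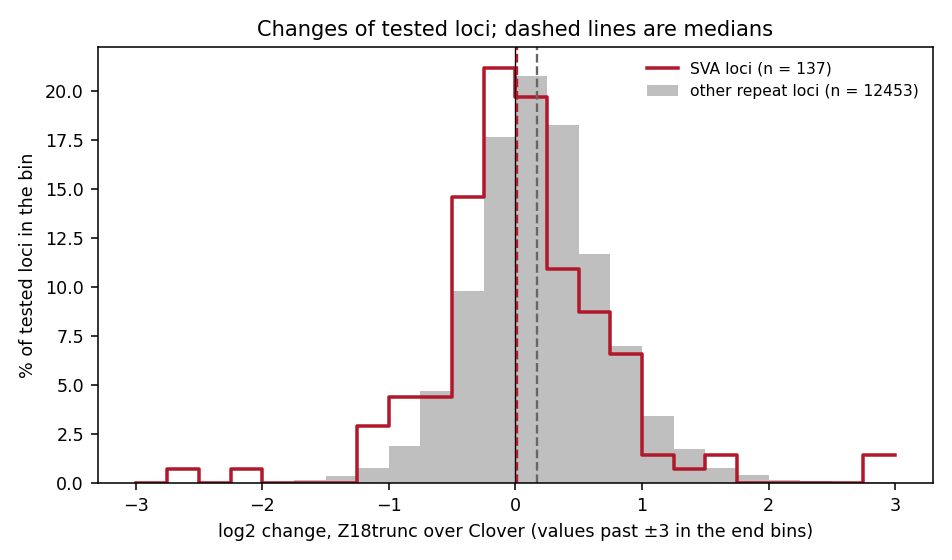
Distribution of log2 changes (Z18trunc over Clover, x axis) over tested loci, as a percentage of each set (y axis), for 137 SVA loci (red outline) and 12453 other repeat loci (grey bars). Dashed lines mark the medians, 0.02 for SVA and 0.17 for the others.

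edgeR's quasi-likelihood test called 1 of the 137 SVA loci at an adjusted p of 0.05, where it called 26 of all 12590 loci (0.207%). At an unadjusted p under 0.05, 9 SVA loci were higher and 6 lower in Z18trunc, or 6.57% and 4.38%, compared with 8.12% and 1.79% of all tested loci. In each direction, 3 of these loci had fewer uniquely mapped than multiply mapped fragments. Under TMM scaling the numbers were 5 higher and 11 lower, and scaled to opposite-strand counts 3 higher and 16 lower. The median log2 change of all 12590 tested loci was -0.0005 and -0.11 under these scalings. The shares of all loci at this p are not given for them, so these numbers do not set SVA loci apart from other loci.

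The called locus was an SVA_D at chr17:63455804-63457690 on the plus strand, of 1887 bp, outside the deposited gene spans and overlapping 14 bases of an exon of the long non-coding transcript ENSG00000265971. Its estimated counts were 3.60, 2.23 and 4.78 in Clover and 42.5, 34.8 and 1.72 in Z18trunc libraries. The first 2 Z18trunc libraries were high and the third lay below every Clover library, so the groups overlapped. The log2 change was 2.80 (SE 0.60, edgeR adjusted p = 0.026), at a locus that reached the minimum of 30 counts only through the Z18trunc libraries, where it was high. No library had more than 1 uniquely mapped fragment at this locus, and 3.35% of its counts were uniquely mapped, so nearly all of the estimate rests on fragments that the authors' algorithm shared with other loci. With uniquely mapped counts alone the locus was too low to be tested. The call was lost under TMM scaling (adjusted p = 0.0775), under scaling to opposite-strand counts (adjusted p = 0.0916) and without Clover library 2 or 3 or Z18trunc library 1 or 2, where edgeR's adjusted p was 0.0548 to 0.199. Without Z18trunc library 3 the adjusted p was 2.86e-05.

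Of the 4 loci with the next smallest p-values, 3 had no uniquely mapped fragment in any library. An SVA_E at chr1:13327613-13328921, outside genes, had estimated counts of 0, 0 and 4.34 in Clover and 27.4, 10.4 and 0 in Z18trunc, and likewise reached the minimum only through Z18trunc. An SVA_D at chr10:122202659-122204205, opposite to TACC2, had 12.9, 11.2 and 3.60 in Clover and 3.54, 0 and 0 in Z18trunc. An SVA_F at chr10:97276515-97277614, opposite to ARHGAP19, had 8.34, 6.67 and 9.64 in Clover and 0, 4.64 and 0 in Z18trunc. None of these 3 loci passed the test (edgeR adjusted p = 0.219, 0.227 and 0.333).

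The remaining one was an SVA_B at chr11:118990993-118992558 on the minus strand, outside genes and exons. It was at 9.52, 9.30 and 8.22 CPM in Clover and at 6.41, 7.11 and 6.75 CPM in Z18trunc. All Z18trunc values lay below all Clover values, and 75% of its counts were uniquely mapped, with 96.0 to 160.0 unique fragments per library. The log2 change was -0.41 (SE 0.14, edgeR adjusted p = 0.288). DESeq2 with its own size factors called it, at a log2 change of -0.58 and an adjusted p of 0.024, in a fit that gave no adjusted p for 125 of the 137 SVA loci. With aligned fragments as scaling DESeq2 did not call it (log2 change -0.42, adjusted p = 0.434).

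**Figure D4:**
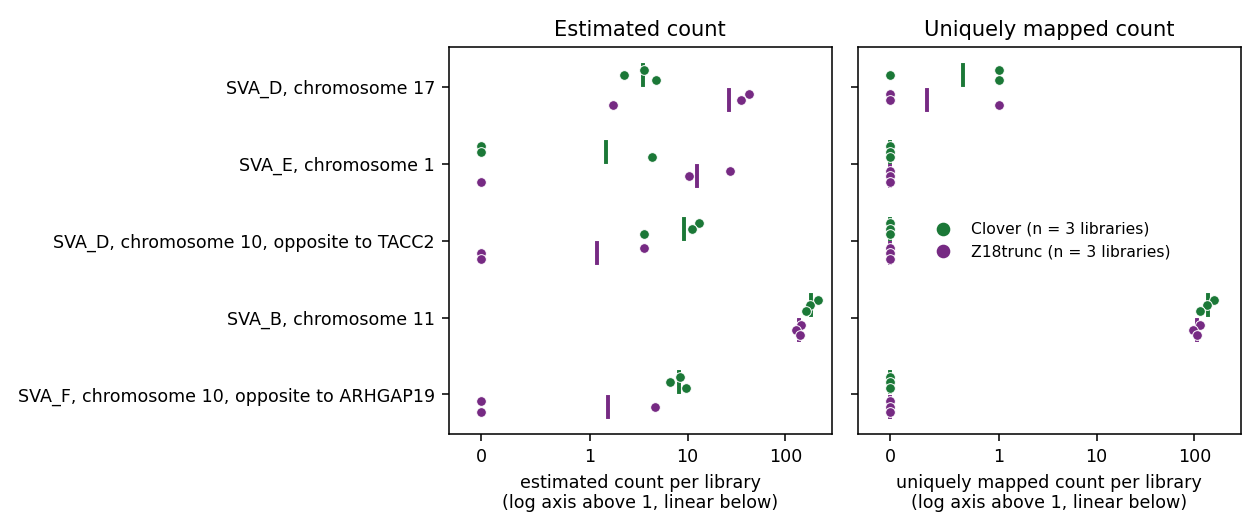
Estimated counts (left) and uniquely mapped counts (right) per library at the 5 SVA loci with the smallest p-values, on an axis that is linear below 1 and logarithmic above. Points are libraries (green Clover, purple Z18trunc, 3 each) and vertical marks are means; only the SVA_B locus keeps its counts when multiply mapped fragments are left out, and the other 4 have at most 1 unique fragment in a library.

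A large part of SVA RNA came from few loci. The 12 loci with the most counts held 47.0% of own-strand SVA counts and the first of them 13.8%. At these 12 loci, 57.3% to 79.5% of counts were uniquely mapped, and the opposite strand had at most 0.0965 CPM on average. Exons on the same strand overlapped 7 of them. edgeR called 0 of the 12, with adjusted p from 0.288 to 0.986 and 1 unadjusted p under 0.05, that of the SVA_B locus above, and log2 changes ran from -0.41 to 0.20. Estimates were above 0 at 4 and below 0 at 8, and under TMM scaling 3 of these 4 were also below 0. Groups did not overlap at 4 of the 12, where 15.6% of all loci with at least 30 counts had CPM values that did not overlap.

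The leading locus was an SVA_C at chr7:101091763-101093354, of 1592 bp, which lies wholly in the 3′ UTR of TRIM56, a ubiquitin ligase of innate antiviral signalling. It was at 34.5, 38.5 and 32.6 CPM in Clover and at 38.0, 38.8 and 41.3 CPM in Z18trunc (log2 change 0.16, SE 0.10, edgeR adjusted p = 0.654). TRIM56 itself was at 38.6 ± 1.03 TPM in Clover and 45.3 ± 3.51 TPM in Z18trunc (log2 change 0.22, limma adjusted p = 0.136, and 0.13 with quantile normalization). Under TMM scaling the change of the SVA_C locus was -0.01.

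Per kilobase of the locus, the highest of the named loci was a fragment of 157 bp, an SVA_F in the 3′ UTR of CCDC137, with 47.5 CPM per kb against 23.4 CPM per kb for the locus in TRIM56. Its level was 7.51 ± 1.03 CPM in Clover and 7.42 ± 0.291 CPM in Z18trunc (SD, n = 3 each). The other exonic loci of coding genes were of SVA_D. An SVA_D of C2CD3, a gene needed for centriole assembly, overlaps coding and 3′ UTR sequence of the annotated transcripts C2CD3-212 and C2CD3-227. This locus was at 7.34 ± 1.02 and 6.92 ± 0.488 CPM. An SVA_D in the 3′ UTR of GOSR1, which encodes a Golgi SNARE, was at 6.29, 6.37 and 7.13 CPM in Clover and at 7.16, 7.74 and 7.88 CPM in Z18trunc, without overlap (log2 change 0.20, edgeR adjusted p = 0.70), while GOSR1 itself had a log2 change of 0.28 (limma adjusted p = 0.0987), and of 0.09 with quantile normalization (limma adjusted p = 0.437). Scaled to opposite-strand counts, the GOSR1 locus had a change of -0.09.

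FRG1BP, a pseudogene of FRG1, carried a pair of SVA_D loci 28 bases apart on chromosome 20. The upstream piece was at 11.9, 12.3 and 12.4 CPM in Clover and at 10.1, 10.3 and 10.8 CPM in Z18trunc (log2 change -0.23, edgeR adjusted p = 0.57). The downstream piece was at 11.9, 12.7 and 12.6 CPM in Clover and at 10.9, 11.2 and 8.98 CPM in Z18trunc (log2 change -0.26, edgeR adjusted p = 0.517). Both pieces were lower in all 3 Z18trunc libraries than in any Clover library, and being parts of 1 stretch they do not count as separate cases. FRG1BP itself was at 23.3 ± 4.67 TPM in Clover and 19.4 ± 10.1 TPM in Z18trunc, where library 3 was at 7.79 TPM.

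Of the leading loci, 4 were in or next to non-coding transcripts. An SVA_D in ZNF584-DT, a divergent transcript of a zinc-finger gene on chromosome 19, was at 13.1 ± 0.942 CPM in Clover and 12.8 ± 1.56 CPM in Z18trunc. An SVA_F in GTF3C2-AS2 on chromosome 2, with 2.0% divergence the least diverged of the named loci, was at 6.06 ± 0.778 and 6.74 ± 0.685 CPM. An SVA_B in the pseudogene ZNRF2P1 was at 6.56 ± 1.52 and 6.67 ± 0.827 CPM. An SVA_A opposite to LINC00866 was at 7.35, 7.35 and 5.35 CPM in Clover and at 5.14, 5.50 and 5.79 CPM in Z18trunc (log2 change -0.29, SE 0.16, edgeR adjusted p = 0.559). The last of the 12, an intronic SVA_D of PPARD, a nuclear receptor gene, was at 5.66 ± 0.510 and 5.01 ± 0.758 CPM.

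**Figure D5:**
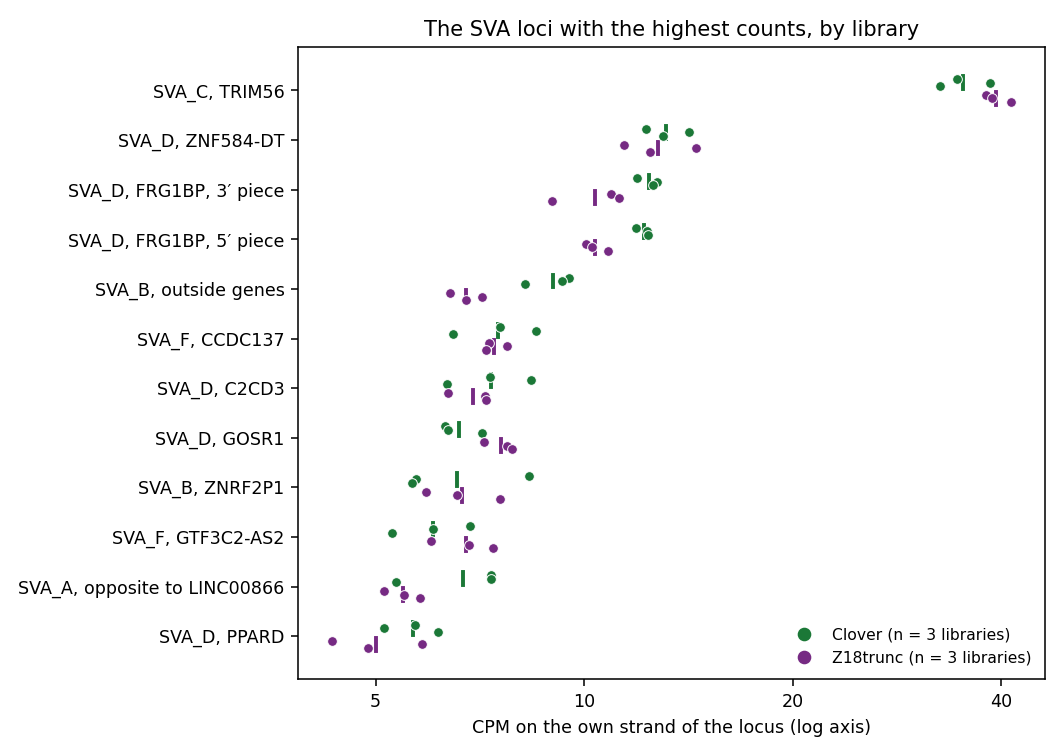
Own-strand CPM (log axis) of the 12 SVA loci with the most counts, each with its subfamily and gene. Points are libraries (green Clover, purple Z18trunc, 3 each) and vertical marks are group means; the SVA_C locus in TRIM56 is highest at 32.6 to 41.3 CPM, and the SVA_B locus outside genes and both FRG1BP pieces are lower in every Z18trunc library than in any Clover library.

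SVA_E had no locus among the 12. Its leading locus, in LINC02821 on chromosome 12, was at 0.992 ± 0.221 CPM in Clover and 0.912 ± 0.614 CPM in Z18trunc, and 0.868% of its counts were uniquely mapped. Over the whole subfamily SVA_E, 23.5% of counts were uniquely mapped, the lowest share of the 6, against 69.8% in SVA_B.

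Loci were also compared by rank, since the study compares FPKM values of loci. Of 1760 SVA loci with an own-strand row, 26 had all 3 Z18trunc FPKM values above all 3 Clover values, with missing values set to 0, and 26 had them all below. Over 363842 repeat loci, 1.92% were higher and 1.01% lower in this sense. Among SVA loci with at least 30 counts, 7 of 137 were higher and 5 lower, compared with 9.78% and 3.73% of all such loci. FPKM divides by the covered stretch of a locus in each library, so these values are not levels per full length.

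Genes that silence, methylate or restrict SVA were listed to set beside the loci, together with the demethylating genes TET1, TET2 and TET3. The list thus mixes genes of opposed function. Of 25 genes other than ZC3H18, 23 had a mean TPM of at least 1 and were tested, and limma called 0 of them at an adjusted p of 0.05, while it called 0.015% of all 13300 genes. At an unadjusted p under 0.05, 8 of the 23 were higher and 0 lower in Z18trunc, compared with 25.6% and 2.9% of all genes. Their median log2 change was 0.22, and 0.11 over all genes tested. With quantile normalization these medians were 0.09 and -0.01.

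Of the SVA-binding zinc-finger genes, ZNF91 was at 0.834, 0.503 and 1.01 TPM in Clover and 0.774, 1.17 and 1.43 TPM in Z18trunc and was below the filter. ZNF611 was at 1.77, 1.35 and 1.45 TPM in Clover and 2.36, 1.82 and 2.30 TPM in Z18trunc (log2 change 0.32, limma adjusted p = 0.107, and 0.18 with quantile normalization). TRIM28, the shared corepressor, was abundant in both groups at 618 ± 28.3 and 581 ± 36.3 TPM (log2 change -0.09, limma adjusted p = 0.498). SETDB1 had a log2 change of 0.22 and its partner ATF7IP one of 0.43 (limma adjusted p = 0.211 and 0.0992), which quantile normalization set to 0.03 and 0.24 (limma adjusted p = 0.852 and 0.19). The heterochromatin protein gene CBX3 was at 165 ± 4.43 and 219.6 ± 26.0 TPM (log2 change 0.40, limma adjusted p = 0.0823).

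Members of the HUSH complex, which represses young retroelements, had log2 changes of 0.35 for TASOR, 0.20 for MPHOSPH8 and 0.35 for PPHLN1, and none passed the test. With quantile normalization these were 0.17, 0.09 and 0.22. Among DNA methylation genes, the de novo methyltransferase gene DNMT3A was at 7.61, 6.52 and 7.66 TPM in Clover and 9.16, 10.4 and 10.9 TPM in Z18trunc. Its log2 change was 0.43 (SE 0.10, limma adjusted p = 0.0773), and the adjusted p was 0.0488 when genes with a mean under 5 TPM were left out. How many of all genes pass under that filter is not given, so DNMT3A is not set apart by it. With quantile normalization the log2 change of DNMT3A was 0.25 (limma adjusted p = 0.127). The maintenance methyltransferase gene DNMT1 had a log2 change of 0.15 and its partner UHRF1 one of -0.0011. TET1, a demethylating dioxygenase gene, was at 0.313 TPM or lower in all libraries. Among restriction factors, APOBEC3B and APOBEC3C differed by -0.02 and 0.0005 and SAMHD1, a dNTP hydrolase gene, by 0.39 (limma adjusted p = 0.0991), or 0.24 with quantile normalization. None of these genes was tested for a part in the SVA values.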

How the data were processed

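Per the submitters' processing notes, reads were trimmed with cutadapt 4.6 and mapped to hg38. The authors ran SQuIRE, and the deposited repeat tables hold, per RepeatMasker locus and strand, the count of uniquely mapped fragments, the estimated count after expectation-maximization, and FPKM. The deposited gene tables hold TPM as the authors computed it, in the layout of StringTie. Estimated counts were rounded and fitted with edgeR 4.0.16 (R 4.3.3, quasi-likelihood), with aligned fragments as library size, loci of at least 30 counts over the 6 libraries, and Benjamini-Hochberg adjustment at 0.05 over 12590 loci or 904 subfamilies. Sums were compared by an exact two-sided permutation test on log2 CPM. Genes were tested with limma 3.58.1 on log2(TPM + 1) at a mean TPM of at least 1, a scale that understates changes of low genes. DESeq2 1.42.0, TMM, opposite-strand scaling, other filters, unique counts and each library left out were alternatives. bedtools 2.31.1 placed loci on GENCODE exons.

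Named loci were the 12 most abundant, every called locus, the 5 with the smallest p, and the leading locus of each subfamily. The members and lists were chosen with earlier results of these data known. On simulated data with 200 changed of 12590 loci, the locus test recovered 64% of 4-fold and 29% of 2-fold changes, and 1.06% of its calls were false. The simulation had no sharing of multiply mapped fragments and no shift of all loci. Its shares therefore need not hold for loci with few uniquely mapped fragments, such as the called SVA_D locus. No 2 libraries held identical counts. Without molecular identifiers, floors cover counting error only, and p-values measure the spread between these libraries. The sequences of single loci are not reported here.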

Additional observations from a re-analysis of the deposited data

How the results depend on the processing

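Scaled to opposite-strand counts, the log2 difference of the SVA sum was -0.28, and scaled to repeat counts of both strands it was -0.18. At loci with no exon it was -0.067. The opposite-strand sum was -0.040 and 0.066 under these scalings. By context, they gave -0.25 and -0.15 inside genes on the same strand, -0.43 and -0.33 on the other strand, and -0.27 and -0.16 outside gene spans. They gave -0.21 and -0.10 at exons, and -0.35 and -0.25 without exons. Under the first scaling the groups were apart in all 5 contexts, which share loci and are all shifted by the same amount. The own-to-opposite ratio was -0.22 with unique counts and -0.24 without the 10 most abundant loci. SVA relative to the 4 classes was 0.056 on the opposite strand and -0.12 at loci with at least 30 counts. At loci with no exon it was -0.33. The 30-count and no-exon settings, and those of SVA_E on the opposite strand, were chosen after seeing the data. The number of SVA loci called, also among the named loci, was 0 under TMM, opposite-strand scaling, DESeq2 with aligned fragments, at least 100 counts and unique counts. It was also 0 on the opposite strand, where 1 subfamily was called. Over all loci, the calls were 7 of 12590 under TMM, 6 under opposite-strand scaling and 16 with DESeq2. They were 36 of 3865 at 100 counts, 26 of 9075 with unique counts and 7 of 12216 on the opposite strand. In the DESeq2 fit with aligned fragments, 97 of the 137 SVA loci had no adjusted p, the called SVA_D locus among them. That locus was also too low to be tested at 100 counts or with unique counts. By rank, 12 loci with at least 30 counts were apart. With a mean TPM of at least 5, 2 listed genes including ZC3H18 were called. The share of all genes called under this filter is not given, so the 2 cannot be set against it. The cause of these changes was not tested.

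Under TMM, opposite-strand scaling and DESeq2's size factors, the TRIM56 locus was at -0.010, -0.12 and -0.0062, the ZNRF2P1 locus at -0.16, -0.26 and -0.15, the GTF3C2-AS2 locus at -0.029, -0.13 and -0.024, and SVA_C at -0.044, -0.13 and -0.048. The GOSR1 locus was at -0.086 under opposite-strand scaling. With unique counts, the ZNF584-DT locus was at 0.13, the ZNRF2P1 locus at -0.10, SVA_D at 0.0068 and SVA_F at 0.0019. With quantile normalization CBX5 was at -0.11 and DNMT3B at -0.064.

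Leaving out each library in turn gave -0.045 to 0.064 for the SVA sum, 0.16 to 0.29 for the opposite strand, -0.33 to -0.11 for their ratio, -0.20 to -0.14 relative to the 4 classes, -0.16 to -0.071 to AluY, -0.40 to -0.21 to L1HS and L1PA, and -0.20 to -0.078 to ERVK. By context the ranges were -0.0074 to 0.092, -0.23 to -0.084, -0.047 to 0.078, 0.026 to 0.13 and -0.11 to -0.00069, in the order above. Between 0 and 2 SVA loci were called, also among the named loci. Without Clover library 2 the call fell on a locus that is not among the named ones, an SVA_F at chr9:38324002-38325986. It had no uniquely mapped fragment in any library (log2 change 4.36, edgeR adjusted p = 0.032). Ranges that crossed 0 were -0.14 to 0.036 for the ZNF584-DT locus, -0.12 to 0.074 for CCDC137, -0.18 to 0.018 for C2CD3, -0.085 to 0.23 for ZNRF2P1, -0.77 to 0.26 for LINC02821, -0.10 to 0.035 for SVA_A, -0.069 to 0.075 for SVA_B, -0.070 to 0.037 for SVA_D, -0.11 to 0.057 for SVA_F, -0.0030 to 0.13 for CBX5, -0.11 to 0.084 for UHRF1, -0.040 to 0.00032 for APOBEC3B, -0.014 to 0.014 for APOBEC3C and -0.029 to 0.029 for MOV10.

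Libraries with the same number did not deviate together (correlations of -0.042, -0.017 and -0.052), and they were treated as unpaired. With so few libraries this cannot exclude a shared culture day or batch. With the replicate block, 1 SVA locus was called and 36 loci in all, compared with 26 without it, and the SVA sum differed by 0.0013.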
